A study of Mus musculus with 18 samples.

Results

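The unfolded protein response and the ATF4 response were followed in 34 genes, chosen by name, for what their products are known to do and with earlier results of these data known. The 34 stood among 18194 genes that had a probe set with a single gene symbol. Every probe set carrying one of the 34 symbols was read: 70 on array set A, of which 63 were bright enough to test and together covered all 34 genes, and 12 on array set B, of which 9 were tested for 8 genes. The RNA came from mouse cortical neurons in culture, which the labels date to postnatal day 0 and also call embryonic, grown for 7 days in vitro and depolarised with KCl for 0, 1 or 6 h. The KCl concentration is 55 mM per the sample labels but 50 mM per the series text, and each time had 3 arrays per set, which the series text describes as 3 independent experiments. The labels name no strain, no genotype change and no culture left without KCl for 1 or 6 h, so effects of KCl cannot be told apart from those of time and handling.

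The endoplasmic reticulum (ER) folds secreted and membrane proteins, and its lumen is watched by the sensors IRE1, PERK and ATF6, encoded by Ern1, Eif2ak3 and Atf6. IRE1 splices the mRNA of Xbp1, ATF6 is cut to release a transcription factor, and both raise chaperones and the machinery of ER-associated degradation (ERAD), which returns misfolded proteins to the cytosol for breakdown. PERK phosphorylates the translation factor eIF2, which slows protein synthesis at large while the mRNA of ATF4 is translated more, and other eIF2 kinases outside the ER do the same. ATF4 raises genes of amino acid supply and of feedback on eIF2, and in neurons it is also known as a regulator of plasticity. The arrays read transcript amounts, and neither splicing of Xbp1, cutting of ATF6 nor phosphorylation of eIF2 can be read from them.

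Signals are linear intensities on the deposited scale. Differences were taken between values of log2(signal + 16), so the changes of dim genes are understated, and a probe set counted as changed at an adjusted p under 0.05 (limma, Benjamini-Hochberg over all probe sets tested of that array set and contrast). The median of an array lay between 163 and 196 units for set A and between 182 and 275 for set B. Of the signals of the 27 probe sets for bacterial genes, taken here as the background level, 95% lay below 74.8 units on set A and below 369 units on set B. Precision is limited by having 3 arrays a time: the typical (median) residual SD of a probe set, in log2 units, was 0.28 for set A and 0.73 for set B. Fos, which neurons induce on depolarisation, read 233, 189 and 311 units at 0 h, 30344, 23802 and 20400 at 1 h and 3537, 4544 and 3505 at 6 h.

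The 0 h arrays differed from the others in a sign of RNA quality, the signal at the 5′ end of the Actb transcript over that at its 3′ end. For set A this ratio was 0.391 ± 0.122 at 0 h, 0.669 ± 0.0496 at 1 h and 0.574 ± 0.0204 at 6 h (SD, n = 3 each), and the 0 h array of replicate 2 was lowest at 0.298. The Gapdh ratio was 0.859 ± 0.195 at 0 h, 1.17 ± 0.103 at 1 h and 1.21 ± 0.0427 at 6 h. Among markers of other cells, the summed signal of 7 astrocyte genes on set A ran from 20262 to 20801 units at 0 h, 14377 to 16862 at 1 h and 12845 to 14866 at 6 h, with Aldoc (-1.02), Gfap (-0.70) and Aqp4 (-0.53) called lower at 6 h than at 0 h on the log2 scale. The other 4 astrocyte genes did not pass. On set B none of 4 astrocyte genes passed at 6 h, and their sum ran from 6085 to 9174 at 0 h and 6159 to 8090 at 6 h. The sum of 9 neuronal genes on set A ran from 43070 to 45219, 44826 to 49084 and 48965 to 52742 units at 0, 1 and 6 h. Of these 9, 3 were called higher and 1 lower at 6 h than at 0 h, and 5 did not pass. On set B 1 of 6 neuronal genes rose at 6 h and none fell. In such bulk cultures fewer cells of a type and less RNA per cell cannot be told apart, and the part of these shifts in the results was not tested. Of 6 oligodendrocyte lineage and 5 microglial markers none passed at 6 h against 0 h, and of 8 vascular markers 1 did, Pecam1 (at least 1.58-fold lower, since 6 h lay within background).

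After 1 h of KCl, 8 of the 63 member probe sets had changed on set A (12.7%), 6 upward and 2 downward, where 4.17% of all probe sets tested had changed (3.25% upward, 0.913% downward). By each gene's brightest probe set the rises were Ppp1r15a, Atf4, Herpud1 and Dnajb9, the falls were Calr and Ddit4, and 28 genes did not pass. After 6 h, 22 of the 63 had changed against 0 h (34.9%), 16 upward and 6 downward, against 22.1% of all probe sets (10.4% upward, 11.7% downward). The brightest probe sets rose for Herpud1, Chac1, Atf4, Sesn2, Asns, Psat1, Ppp1r15a and Xbp1, fell for Derl2, Edem1, Derl1 and Calr, and did not pass for 22 genes. The median member probe set moved little at either time, by -0.02 at 1 h and 0.07 at 6 h on the log2 scale, beside -0.01 and -0.05 over all probe sets. With the Gapdh ratio as a covariate the counts fell to 2 at 1 h (both upward, Atf4 and Ppp1r15a) and 8 at 6 h, while 0.377% and 3.44% of all probe sets were called. The 6 h calls that stayed were both probe sets of Atf4, Asns and Sesn2, that of Chac1 and the first of the 2 of Herpud1 described below. The means of the Gapdh and Actb ratios were both lower at 0 h than at either later time. In a fit with such a covariate, RNA quality and time cannot be fully told apart. A call lost there can mean a less precise estimate as well as a smaller change. Leaving out single arrays moved the 1 h count to 3 (without 1 h replicate 3), 5 (without 0 h replicate 1, 0 h replicate 2 or 1 h replicate 1) or 14 (without 0 h replicate 3), and the 6 h count to between 15 and 23. Only the larger moves of the 1 h count are listed, and the fits not named lost calls too. A dimmer probe set of Canx lost its 1 h call in each of them, and Ddit4 lost its own without any single 6 h array.

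**Figure D1:**
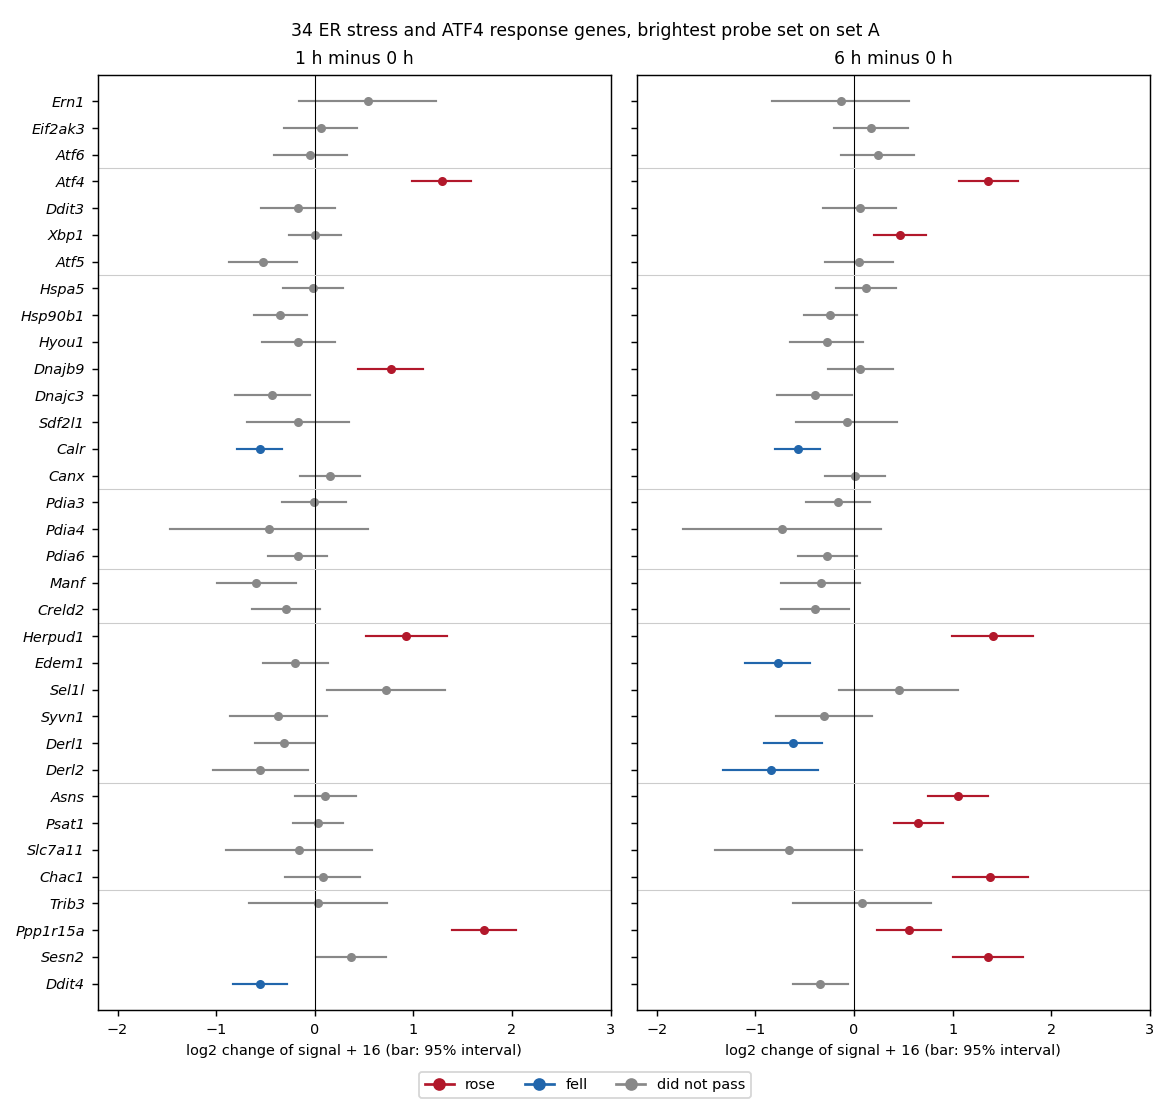
Log2 change of each of the 34 genes at 1 h (left) and 6 h (right) against 0 h, brightest probe set on set A, in order of role; points are estimates, bars 95% intervals, red rose, blue fell and grey did not pass. At 1 h the largest change is that of Ppp1r15a at 1.72, and at 6 h those of Herpud1 (1.41), Chac1 (1.38), Atf4 (1.36) and Sesn2 (1.36).

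None of the 3 sensor genes passed in any contrast. PERK is the sensor that phosphorylates eIF2, and its gene Eif2ak3 read 881, 707 and 913 at 0 h, 1099, 696 and 848 at 1 h and 916, 999.6 and 895 at 6 h. The times overlapped, and the change was 0.06 at 1 h (95% interval -0.31 to 0.43) and 0.17 at 6 h (-0.20 to 0.54). Atf6, the sensor that is itself a transcription factor, read 439.6, 373 and 353 at 0 h, 332, 348 and 454 at 1 h and 468, 457 and 453 at 6 h. Its 6 h values all lay above those at 0 h, by 0.24 on the log2 scale (-0.13 to 0.61, adjusted p = 0.371). Ern1, encoding the nuclease and kinase IRE1, was dim, with a brightest probe set between 72.2 and 185 units on the 9 arrays, close to the background level, and changes of 0.54 (-0.16 to 1.23) and -0.13 (-0.83 to 0.56).

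Of the 4 transcription factors, Atf4 rose at both times. Atf4 is the factor that eIF2 phosphorylation brings to translation, and its brightest probe set read 2662, 2487 and 1803 at 0 h, 5539.7, 5329 and 5977 at 1 h and 5673, 5967 and 6094 at 6 h. Every array after KCl stood above every 0 h array, and the level at 6 h overlapped that at 1 h. The rise was 2.44-fold at 1 h (log2 1.29 ± 0.14 SE, adjusted p = 0.000164) and 2.57-fold at 6 h (log2 1.36 ± 0.14 SE, adjusted p = 3.67e-05), with a further change of 0.07 between the 2 times (-0.23 to 0.38). A second, cross-hybridising probe set of Atf4 rose by 1.13 at 1 h and 1.39 at 6 h on the log2 scale, and all 4 calls held in each fit without 1 array. The 1 h call of this second probe set was lost with either the Gapdh or the Actb ratio as a covariate, and the other calls held.

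Ddit3 encodes CHOP, a factor that ATF4 is known to raise under sustained ER stress and that favours cell death. It did not pass at either time. Its tested probe set read 463, 494 and 439.7 at 0 h, 489, 370.0 and 386 at 1 h and 470.4, 569.7 and 424 at 6 h, and the 3 times overlapped. The change was -0.17 at 1 h (95% interval -0.54 to 0.20) and 0.06 at 6 h (-0.31 to 0.43), so a log2 change of 1 lay outside both intervals.

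Xbp1, whose mRNA IRE1 splices, rose at 6 h on its brightest probe set, which read 3339, 2605 and 2615 at 0 h, 2631, 2872 and 3027 at 1 h and 4073, 3916 and 3787 at 6 h. The 6 h arrays stood above all others, 1.38-fold against 0 h (log2 0.47 ± 0.12 SE, adjusted p = 0.0157) and 1.38-fold against 1 h (log2 0.46 ± 0.12 SE, adjusted p = 0.0280). Without single arrays the first call was lost in 3 of 9 fits (without 0 h replicate 2, 6 h replicate 1 or 6 h replicate 2, adjusted p from 0.0520 to 0.0599) and the second in 5 of 9 (without 1 h replicate 1 or 2 or any 6 h array, adjusted p from 0.0503 to 0.0933). A nearly as bright probe set read 3185, 3505 and 3116 at 0 h, 2269, 2431 and 2601 at 1 h and 3515, 3527 and 3102 at 6 h. It was lowest at 1 h (-0.42, adjusted p = 0.0519), rose between 1 h and 6 h by 0.47 (adjusted p = 0.0164) and stood at 0.05 against 0 h. That rise was lost without 1 h replicate 1 or 6 h replicate 1 or 2 (adjusted p from 0.0592 to 0.0776). The other 2 probe sets, at 0.21 and -0.29 at 6 h, did not pass.

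Atf5, a factor related to ATF4 and translated by a similar mechanism, read 1278, 1354 and 1191 at 0 h, 1062, 804 and 794 at 1 h and 1542, 1368 and 1086 at 6 h. All 1 h arrays lay below the 0 h arrays without passing (log2 -0.53 ± 0.16 SE, adjusted p = 0.0858). The 6 h arrays all stood above those at 1 h (log2 0.58 ± 0.16 SE, adjusted p = 0.0349) and overlapped those at 0 h. This call was lost in 5 of 9 fits without 1 array (0 h replicate 1, 1 h replicate 2 or 3, 6 h replicate 1 or 2, adjusted p from 0.0504 to 0.137).

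**Figure D2:**
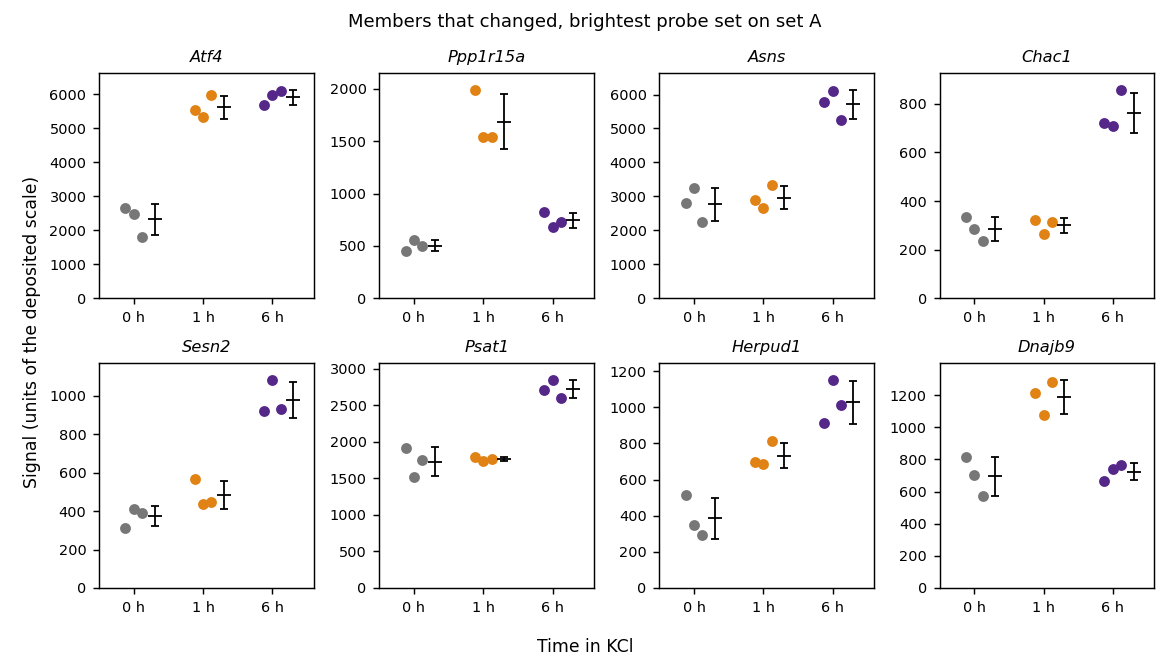
Signal of 8 of the members that changed, brightest probe set on set A, on each array at 0, 1 and 6 h of KCl (points), with the mean and SD of 3 arrays (bar beside the points); axes are linear and start at 0. Atf4 and Herpud1 are high at 1 h and 6 h, Ppp1r15a and Dnajb9 peak at 1 h, and Asns, Chac1, Sesn2 and Psat1 are high at 6 h.

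As targets of ATF4, 8 members were grouped here, and Ddit3 was placed with the transcription factors instead. Among the 8, Ppp1r15a had the largest change at 1 h. It encodes GADD34, which brings a phosphatase to eIF2 and so reverses its phosphorylation. Ppp1r15a read 452, 554 and 495 at 0 h, 1991, 1538 and 1537 at 1 h and 824, 676 and 729 at 6 h. All 1 h arrays stood far above the rest, and the 6 h arrays stood between those at 1 h and those at 0 h. The difference was 3.29-fold at 1 h (log2 1.72 ± 0.15 SE, adjusted p = 2.43e-05) and 1.47-fold at 6 h (log2 0.56 ± 0.15 SE, adjusted p = 0.0186), and the level was lower at 6 h than at 1 h (log2 -1.16 ± 0.15 SE, adjusted p = 0.000413). The 6 h call against 0 h was lost without replicate 1 of 0 h or of 6 h (adjusted p = 0.0722 and 0.0796) and with the Gapdh covariate (adjusted p = 0.180). The other 2 calls held in each fit without 1 array.

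Of the 4 genes of amino acid and redox supply, 3 rose at 6 h and none passed at 1 h. Of all probe sets, 10.4% rose and 11.7% fell at 6 h, and 3.25% rose and 0.913% fell at 1 h. Asns encodes asparagine synthetase, and its brightest probe set read 2808, 3236 and 2253 at 0 h, 2894, 2661 and 3334 at 1 h and 5793, 6090.3 and 5254 at 6 h. The 0 h and 1 h arrays overlapped and all 6 h arrays stood above them, 2.08-fold over 0 h (log2 1.05 ± 0.14 SE, adjusted p = 0.000265) and 1.93-fold over 1 h (log2 0.95 ± 0.14 SE, adjusted p = 0.00116). The second probe set of Asns rose by 1.13 at 6 h (adjusted p = 0.000371).

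Chac1, an enzyme that degrades glutathione, read 333, 284 and 237 at 0 h, 322, 266 and 313 at 1 h and 722, 710.3 and 858 at 6 h. It too overlapped between 0 h and 1 h and was higher on every 6 h array, 2.61-fold over 0 h (log2 1.38 ± 0.18 SE, adjusted p = 0.000180) and 2.46-fold over 1 h (log2 1.30 ± 0.18 SE, adjusted p = 0.000547). Psat1, an enzyme of serine synthesis, read 1909, 1521 and 1755 at 0 h, 1792, 1737 and 1759 at 1 h and 2705, 2848 and 2600.0 at 6 h. Its 6 h arrays were 1.57-fold over 0 h (log2 0.65 ± 0.12 SE, adjusted p = 0.00171) and 1.54-fold over 1 h (log2 0.62 ± 0.12 SE, adjusted p = 0.00473). The other Psat1 probe set rose against 1 h (0.65, adjusted p = 0.0104, lost without 6 h replicate 2 at adjusted p = 0.0547) and not against 0 h (0.32, adjusted p = 0.127). The 6 h call of the brighter probe set against 0 h was lost with the Gapdh covariate.

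Sesn2 encodes sestrin 2, which restrains mTORC1 when amino acids are scarce. It read 314, 413 and 390.4 at 0 h, 567, 439 and 448 at 1 h and 920.0, 1084 and 931 at 6 h. All 6 h arrays stood above the rest, 2.57-fold over 0 h (log2 1.36 ± 0.17 SE, adjusted p = 0.000128) and 1.99-fold over 1 h (log2 1.00 ± 0.17 SE, adjusted p = 0.00218), and at 1 h the change of 0.37 did not pass (adjusted p = 0.242). A dimmer probe set of Sesn2 also rose at 6 h (adjusted p = 0.000849). The 6 h calls of Asns, Chac1 and Sesn2 against either time held in each fit without 1 array.

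Neither Ddit4, Trib3 nor Slc7a11 rose. Ddit4, encoding the mTORC1 inhibitor REDD1, read 1875, 1969.7 and 2402 at 0 h, 1408, 1537 and 1285 at 1 h and 1632, 1678 and 1587 at 6 h. It was lower on every array after KCl than on any at 0 h, with log2 changes of -0.55 at 1 h (adjusted p = 0.0304) and -0.34 at 6 h, the second of which did not pass (adjusted p = 0.0759). The 1 h call was lost in 8 of 9 fits without 1 array (adjusted p from 0.0518 to 0.118), the exception being 1 h replicate 2. Trib3, a pseudokinase that feeds back on ATF4, read 126, 129.9 and 133 at 0 h, 194, 104 and 115 at 1 h and 219, 101 and 118 at 6 h, with changes of 0.03 (-0.66 to 0.73) and 0.08 (-0.62 to 0.78). Slc7a11, the cystine transporter, did not pass in any contrast.

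Of the 8 ER chaperones and cochaperones, by brightest probe set, 1 rose and 1 fell at 1 h, and at 6 h none rose and 1 fell. At 1 h, 3.25% of all probe sets rose and 0.913% fell. Over all 19 of their probe sets, 3 rose and 2 fell at 6 h, where 10.4% and 11.7% of all probe sets did so. Calr, the lectin chaperone and calcium store protein calreticulin, read 10191, 8647 and 8669 at 0 h, 6091, 6496 and 6035 at 1 h and 6357, 6269 and 5822 at 6 h. Every array after KCl lay below every 0 h array, with log2 changes of -0.56 at 1 h (adjusted p = 0.0126) and -0.57 at 6 h (adjusted p = 0.00225). The 1 h call was lost without 0 h replicate 1 or 1 h replicate 3 (adjusted p = 0.0643 and 0.0611). Of its 2 cross-hybridising probe sets, 1 fell at 6 h (-0.59, adjusted p = 0.0199, lost without 0 h replicate 1 or 6 h replicate 2 at adjusted p = 0.0909 and 0.0968) and the other did not pass (-0.65, adjusted p = 0.0527). Both calls of the brightest probe set were lost with the Gapdh covariate, where the 6 h change was -0.58 (adjusted p = 0.0933).

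Hspa5 encodes BiP, the main lumenal chaperone and a usual readout of the unfolded protein response. Its brightest probe set read 11591, 8974 and 7497 at 0 h, 9536, 8564 and 9167 at 1 h and 10109.5, 9899 and 10093 at 6 h. Both later times overlapped 0 h, and the 6 h arrays stood above those at 1 h. The changes against 0 h were -0.02 at 1 h (95% interval -0.32 to 0.28) and 0.12 at 6 h (-0.18 to 0.43), and that between 1 h and 6 h was 0.14 (-0.16 to 0.45). A dimmer probe set of Hspa5 read 2744, 2316 and 3228 at 0 h, 3745, 4550 and 2773 at 1 h and 3587, 3169 and 3201 at 6 h. It stood at 0.40 at 1 h (0.03 to 0.77, adjusted p = 0.221) and 0.27 at 6 h (-0.10 to 0.65). Neither probe set passed in any contrast. Dnajb9, a cochaperone of BiP that represses IRE1, read 813, 703 and 571 at 0 h, 1214, 1075 and 1281 at 1 h and 665, 739 and 765 at 6 h. It was higher on every 1 h array, 1.71-fold over 0 h (log2 0.77 ± 0.15 SE, adjusted p = 0.0152), and lower at 6 h than at 1 h (log2 -0.71, adjusted p = 0.0103). The 1 h rise was lost without 1 h replicate 1 or 3 (adjusted p = 0.0517 and 0.0709) and with the Gapdh covariate (log2 1.01, adjusted p = 0.103). The fall between 1 h and 6 h held in each of these fits.

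For 3 chaperones a dimmer probe set rose while the brightest did not pass. Canx encodes calnexin, the membrane partner of calreticulin, and its brightest probe set read 2729, 2708 and 3587 at 0 h, 3901, 3004 and 3159.6 at 1 h and 3115, 2805 and 3119.8 at 6 h. Those times overlapped, with changes of 0.16 (-0.14 to 0.46) and 0.01 (-0.29 to 0.32). A dimmer probe set of Canx read 552, 310.5 and 761 at 0 h, 1094, 921 and 1115 at 1 h and 1059, 952 and 827 at 6 h, a rise of 1.01 at 1 h (adjusted p = 0.0405) and 0.87 at 6 h (adjusted p = 0.0239). The lowest of its 9 values came from 0 h replicate 2, the array with the lowest 5′ to 3′ ratios. Without that array the 6 h rise was 0.53 (adjusted p = 0.0637) and the 1 h rise 0.67 (adjusted p = 0.0898), and with the Actb ratio as a covariate the 1 h change was -0.086 (adjusted p = 0.987). The 1 h call was lost in 8 of 9 fits without 1 array, all but that without 0 h replicate 3, and the 6 h call also without 6 h replicate 1 or 2 (adjusted p = 0.0847 and 0.0687).

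Hsp90b1 encodes GRP94, the lumenal HSP90, and its brightest probe set read 2415, 1875 and 2249.8 at 0 h, 1614, 1818 and 1667 at 1 h and 1917, 1838 and 1749.9 at 6 h. The change was -0.35 at 1 h (-0.62 to -0.08) and -0.24 at 6 h (-0.51 to 0.03). A dimmer probe set of Hsp90b1 read 918, 410.2 and 1344 at 0 h, 1722, 1718 and 1914 at 1 h and 1707, 1602 and 1684 at 6 h, again lowest on 0 h replicate 2. It rose at 6 h (log2 1.04 ± 0.30 SE, adjusted p = 0.0238), and with the Gapdh ratio as a covariate the change was -0.025 (adjusted p = 0.979). The call was also lost without any single 6 h array (adjusted p from 0.0595 to 0.0659). Dnajc3 encodes p58IPK, a cochaperone that inhibits eIF2 kinases. Its brightest probe set read 327, 323 and 322 at 0 h, 227, 234 and 249.7 at 1 h and 233, 269 and 226 at 6 h, lower on every array after KCl without passing (-0.40 at 6 h, adjusted p = 0.127), whereas a dimmer probe set read 142, 106 and 182 at 0 h, 243, 154 and 272 at 1 h and 295, 321 and 235 at 6 h and rose at 6 h (log2 0.93 ± 0.27 SE, adjusted p = 0.0241). That call was lost without 0 h replicate 1 or 2 or 6 h replicate 1 or 2 (adjusted p from 0.0589 to 0.0942). The other 2 tested probe sets of Dnajc3 did not pass.

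Hyou1 and Sdf2l1, which work with BiP, the disulfide isomerases Pdia3, Pdia4 and Pdia6, and the small ER stress proteins Manf and Creld2 did not pass in any contrast. Together with the 3 sensors, Ddit3, Hspa5, Syvn1, Slc7a11 and Trib3 they were the 15 members with no call on set A. Their brightest probe sets ranged from -0.59 to 0.54 on the log2 scale at 1 h and from -0.73 to 0.24 at 6 h. Over all 34 members the 95% interval of a change reached a median of 0.35 log2 units to either side. Some of the 15 were less precise. The widest of their 6 h intervals, by brightest probe set, ran from -1.74 to 0.27, so a fall of 1 log2 unit lay inside it.

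**Figure D3:**
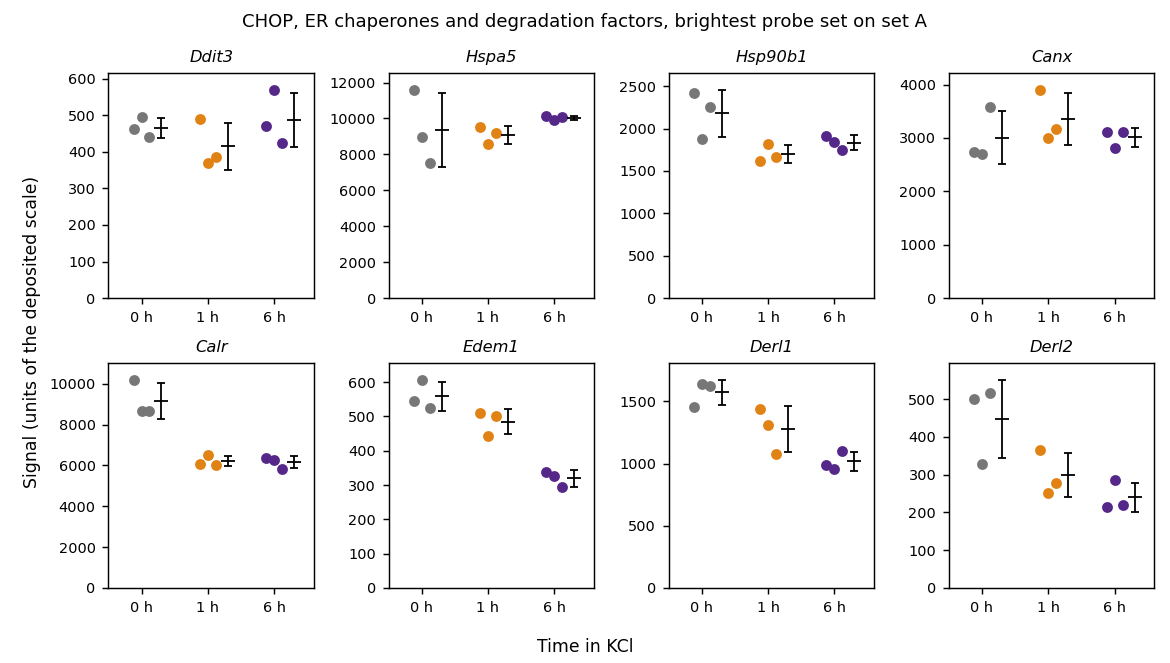
Signal of Ddit3 (CHOP), 4 ER chaperone genes and 3 degradation genes, brightest probe set on set A, on each array at 0, 1 and 6 h of KCl (points), with the mean and SD of 3 arrays (bar); axes are linear and start at 0. Ddit3, Hspa5 and Canx overlap 0 h at both later times, Calr is lower at both later times, and Edem1, Derl1 and Derl2 have their lowest means at 6 h.

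Genes of ERAD went in both directions at 6 h: of 6, by brightest probe set, 1 rose, 3 fell and 2 did not pass, where 10.4% of all probe sets rose and 11.7% fell. Herpud1, a membrane protein that organises the degradation complex, read 513, 349 and 296 at 0 h, 699, 687 and 812 at 1 h and 915, 1152 and 1014 at 6 h. Every 1 h array stood above every 0 h array and every 6 h array above both. The rise was 1.91-fold at 1 h (log2 0.93 ± 0.19 SE, adjusted p = 0.0172) and 2.65-fold at 6 h (log2 1.41 ± 0.19 SE, adjusted p = 0.000268). The second probe set of Herpud1 read 389, 428 and 423 at 0 h, 607, 536 and 582 at 1 h and 726, 754 and 713 at 6 h and rose at 6 h (0.80, adjusted p = 0.00131) but not at 1 h (0.46, adjusted p = 0.0783). The 1 h call was lost without 0 h replicate 2 or 1 h replicate 3 (adjusted p = 0.0633 and 0.0788) and with the Gapdh covariate (log2 1.15, adjusted p = 0.183). With that covariate the 6 h call held (log2 1.65, adjusted p = 0.0127).

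Edem1, which hands glycoproteins to degradation, read 544, 607 and 524 at 0 h, 511, 443 and 501 at 1 h and 339, 326 and 293 at 6 h. All 6 h arrays lay below the rest, with log2 changes of -0.77 against 0 h (adjusted p = 0.00320) and -0.58 against 1 h (adjusted p = 0.0280). The second of these calls was lost in 5 of 9 fits without 1 array (1 h replicate 1 or 3 or any 6 h array, adjusted p from 0.0561 to 0.104). Derl1, a subunit of the channel through which proteins leave the ER, read 1456, 1639.9 and 1623 at 0 h, 1440.3, 1314 and 1075 at 1 h and 993, 959 and 1102 at 6 h. It fell at 6 h by 0.62 on the log2 scale (adjusted p = 0.00599). A dimmer probe set fell as well (-0.70, adjusted p = 0.0227, lost without 0 h replicate 2 or any 6 h array, adjusted p from 0.0586 to 0.0956), and the other 2, at -0.10 and 0.52, did not pass.

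Derl2, a related subunit, read 499, 329 and 515 at 0 h, 364, 253 and 278 at 1 h and 214, 285 and 220.0 at 6 h. Its 6 h arrays lay below the 0 h arrays (log2 -0.84, adjusted p = 0.0160), and the call was lost without 0 h replicate 1 or 3 or 6 h replicate 1 or 3 (adjusted p from 0.0547 to 0.0673). The other probe set of Derl2 stood at 0.31 (adjusted p = 0.345). With the Gapdh covariate the falls of Derl1, Derl2 and Edem1 at 6 h against 0 h were not called, and with the Actb covariate that of Derl2 was. Sel1l, the adaptor of the ubiquitin ligase encoded by Syvn1, rose on 1 probe set of set A and fell on set B. On set A its brightest probe set read 417, 279 and 618 at 0 h, 676, 532 and 941 at 1 h and 670.0, 644 and 442 at 6 h and did not pass (0.45 at 6 h), while a dimmer probe set read 124, 115 and 221 at 0 h, 247, 338 and 356 at 1 h and 416, 206 and 331 at 6 h and rose at 6 h (log2 0.98 ± 0.29 SE, adjusted p = 0.0297), with 1 value at 6 h below the highest at 0 h. That call was lost without 0 h replicate 1 or 2 or 6 h replicate 1 or 3 (adjusted p from 0.0924 to 0.127). The other 2 tested probe sets, at -0.24 and 0.91, did not pass.

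On set B none of the 9 member probe sets changed at 1 h, where 0.219% of all probe sets did (0.178% upward, 0.0415% downward), 1 changed at 6 h against 0 h, where 5.0% of all did (2.20% upward, 2.80% downward), and none between 6 h and 1 h, where 2.35% of all did (0.965% upward, 1.39% downward). At an unadjusted p under 0.05 there was 1 of the 9 in each contrast, and the share of all probe sets at that threshold was not taken. At 1 h it was Atf6, which read 199, 129.6 and 59.6 at 0 h, 260.4, 274 and 778 at 1 h and 440.0, 456 and 226 at 6 h. All later arrays stood above those at 0 h, whose mean is within the background level of set B. The fitted changes of 1.80 (95% interval 0.15 to 3.46, adjusted p = 0.741) and 1.55 (-0.10 to 3.21, adjusted p = 0.390) did not pass. The one called was Sel1l, which fell at 6 h. Its probe set read 6997, 5179 and 5318 at 0 h, 6665, 3886 and 4917 at 1 h and 4746, 2769 and 2704 at 6 h on the scale of set B, whose arrays were made comparable by quantile normalization before the fit. The change was -0.69 ± 0.15 SE (adjusted p = 0.0157). It was lost without replicate 1 or 3 of 0 h or replicate 2 or 3 of 6 h (adjusted p from 0.0584 to 0.0650), on the deposited scale (log2 -0.81, adjusted p = 0.189) and with the Gapdh covariate (log2 -0.72, adjusted p = 0.261). The 3 arrays numbered 1 carry values below 0 and the others do not. In a fit that adds replicate as a block the 6 h fall of Sel1l held (adjusted p = 0.00265), and 1 member probe set was also lower at 6 h than at 1 h. The Hspa5 probe set of set B, a cross-hybridising one, read 5267, 5353 and 4838 at 0 h, 3600.0, 6126 and 4735 at 1 h and 4147, 4648 and 5868 at 6 h. Its change of 0.03 at 6 h had a 95% interval of -0.61 to 0.67.

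Probe sets of one gene did not always share a call. Of the 18 members with 2 or more tested probe sets on set A, 13 had at least 1 called at 6 h, and in 4 of these (Atf4, Asns, Herpud1 and Sesn2) every tested probe set was called. At 1 h, 4 had at least 1 called, and Atf4 alone had every one called. Of all single probe sets, 22.1% were called at 6 h and 4.17% at 1 h. The same counts over all genes with 2 or more tested probe sets were not taken, so these counts have no share to stand beside.

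**Figure D4:**
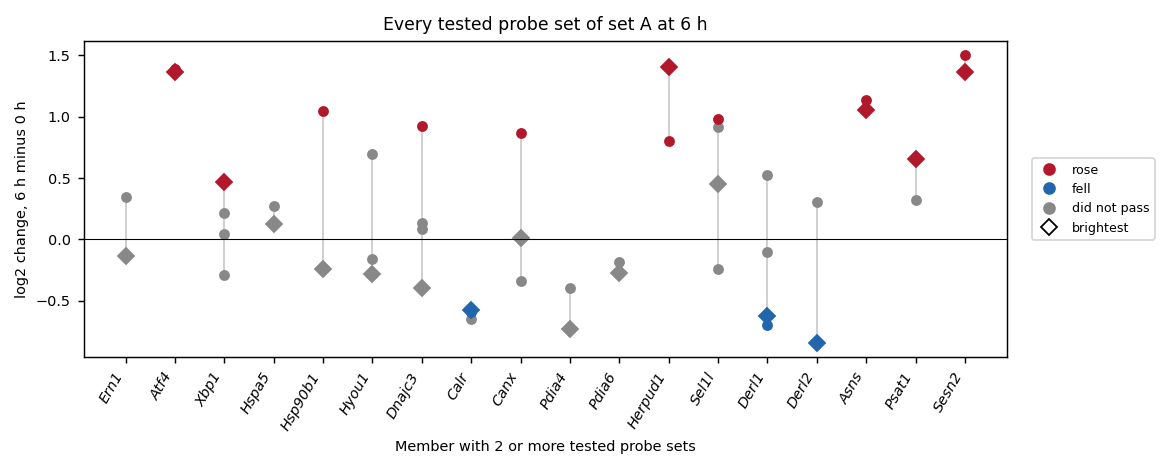
Log2 change at 6 h against 0 h of every tested probe set on set A for the 18 members with 2 or more, with 1 column per gene; diamonds mark the brightest probe set, red rose, blue fell and grey did not pass. The probe sets of Atf4, Asns and Sesn2 lie together, whereas those of Hsp90b1 run from -0.24 to 1.04 and those of Derl2 from -0.84 to 0.31.

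Between 1 h and 6 h, 13 of 63 member probe sets changed on set A (20.6%, 10 upward and 3 downward), where 11.6% of all did (5.07% upward, 6.51% downward). By brightest probe set Chac1 (1.30), Sesn2 (1.00), Asns (0.95), Psat1 (0.62), Atf5 (0.58) and Xbp1 (0.46) were higher at 6 h than at 1 h. Ppp1r15a (-1.16), Dnajb9 (-0.71) and Edem1 (-0.58) were lower. All 13 calls held with the Gapdh covariate, and 12 held with the Actb covariate, the exception being Atf5. Without 6 h replicate 2 the count was 8.

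Promoters were read for the 30 members with an entry in the RefSeq promoter table of GRCm38.p6, which gave 33 windows from 250 bases before to 50 after a transcript start. Both strands were searched for 5 short motifs, chosen with the results known: the C/EBP-ATF response element bound by ATF4 (CARE, TGATGNAA), the ER stress response elements (ERSE, which is CCAAT and CCACG with 9 bases of any kind between them, and ERSE-II, which is ATTGG and CCACG with 1 base between them), the cyclic AMP response element (CRE, TGACGTCA) and the XBP1 element (UPRE, TGACGTGG). CARE stood in the windows of 5 members, Chac1, Asns, Herpud1, Trib3 and Slc7a11, and in 3.97% of all 32851 windows. ERSE stood in those of 8, Hspa5, Calr, Hsp90b1, Canx, Pdia6, Dnajc3, Creld2 and Syvn1, and in 0.119% of all. ERSE-II was found for Herpud1 (0.0365% of all), CRE for Ppp1r15a (1.79% of all) and UPRE for no member (0.676% of all), and no matches overlapped. Of the 5 members with CARE, 3 rose at 6 h and 2 did not pass, from -0.66 to 1.41 on the log2 scale. Of the 8 with ERSE, by brightest probe set, none rose, Calr fell and 7 did not pass, from -0.57 to 0.12. Over all probe sets tested on set A, 10.4% rose and 11.7% fell at 6 h, and the counts for ERSE are near those shares. A difference between the motif groups was not tested. A match describes the sequence and does not show that a factor bound there.

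The 250 bases before the start are shown for Chac1 (chr2:119350992-119351241, plus strand), Asns (chr6:7693210-7693459, minus strand) and Herpud1 (chr8:94386179-94386428, plus strand). These genes hold CARE and, by brightest probe set, rose at 6 h against 0 h under every alternative tried. The second Herpud1 probe set lost its 6 h call in 2 of 20 alternatives. The same stretch is shown for Hspa5 (chr2:34771840-34772089, plus strand), added after its values were seen because it holds ERSE and did not pass. Each stretch runs 5′ to 3′ on the strand of its gene, and capitals mark the fixed letters of a match. CARE lies 193 bases before the start of Chac1 and 112 before that of Herpud1, both on the opposite strand, and 23 before that of Asns. Herpud1 also holds ERSE-II 52 bases before its start, and Hspa5 holds ERSE 65 bases before.
Chac1: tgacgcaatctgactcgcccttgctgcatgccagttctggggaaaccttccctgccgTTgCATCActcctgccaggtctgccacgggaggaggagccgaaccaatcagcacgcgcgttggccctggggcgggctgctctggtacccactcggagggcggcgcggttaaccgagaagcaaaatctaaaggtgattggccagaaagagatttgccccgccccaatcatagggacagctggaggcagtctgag
Asns: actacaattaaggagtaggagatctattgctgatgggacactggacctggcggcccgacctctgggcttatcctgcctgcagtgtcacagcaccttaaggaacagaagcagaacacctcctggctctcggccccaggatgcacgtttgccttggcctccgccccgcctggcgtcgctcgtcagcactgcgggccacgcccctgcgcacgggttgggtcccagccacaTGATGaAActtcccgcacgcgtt
Herpud1: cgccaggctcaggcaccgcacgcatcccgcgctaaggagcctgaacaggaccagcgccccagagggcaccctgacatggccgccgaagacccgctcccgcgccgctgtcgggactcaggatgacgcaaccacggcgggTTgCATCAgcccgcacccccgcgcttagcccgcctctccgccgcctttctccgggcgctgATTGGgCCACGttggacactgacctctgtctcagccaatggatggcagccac
Hspa5: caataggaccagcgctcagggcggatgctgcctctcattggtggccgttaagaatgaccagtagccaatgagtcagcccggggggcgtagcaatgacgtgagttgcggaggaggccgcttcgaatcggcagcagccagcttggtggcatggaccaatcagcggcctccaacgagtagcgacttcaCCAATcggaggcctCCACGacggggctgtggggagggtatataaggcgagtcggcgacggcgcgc

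The rest of these pathways was described by 9 lists of 131 further genes, written with earlier results known, of which 115 had a tested probe set on set A. By brightest probe set 3 rose and 1 fell at 1 h (3.5%, against 4.17% of all probe sets), 23 rose and 9 fell at 6 h (27.8%, against 22.1%), and the median change at 6 h was 0.12 on the log2 scale. Unlike the calls of the members, those of the 9 lists were not followed with the Gapdh or Actb ratio as a covariate or without single arrays. With the Gapdh ratio, 3.44% of all probe sets were called at 6 h. The list of other ATF4 pathway genes held 10 of these 23 rises. Of its 21 tested genes 10 rose and none fell, where 10.4% of all probe sets rose and 11.7% fell, and its median was 0.70. At 1 h Atf3, Cebpb (1.06) and Slc38a2 (0.85) of that list rose, and these were its only calls. Atf3, a stress-induced repressor, read 39.0 ± 9.92 at 0 h, which is below the background level, 328 ± 67.7 at 1 h and 207 ± 12.1 at 6 h (SD, n = 3 each). Against the background level that is at least 4.39-fold higher at 1 h (adjusted p = 5.92e-05) and at least 2.76-fold higher at 6 h (adjusted p = 0.000170). The largest 6 h rises among genes of this list above background at 0 h were the arginine transporter gene Slc7a3 (1.34), the mitochondrial folate enzyme gene Mthfd2 (1.27) and the glutamine transporter gene Slc38a2 (1.15). Phgdh, the first enzyme of serine synthesis (-0.25, adjusted p = 0.217), and Eif4ebp1 (0.98, adjusted p = 0.0568) did not pass. On set B 4 of 8 of this list rose at 6 h and none fell, where 2.20% of all probe sets rose and 2.80% fell. The rises were Slc38a2 (at least 3.98-fold, since 0 h lay within background), the arginine transporter gene Slc7a1 (1.27), Gpt2 (1.16) and Psph (0.99).

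Of 11 aminoacyl-tRNA synthetase genes that ATF4 is linked to, 4 rose at 6 h and 2 fell, where 10.4% of all probe sets rose and 11.7% fell, and the median was 0.36. Eprs (1.12), Cars (0.89), Iars (0.70) and Aars (0.54) rose, and Wars (-0.61) and Lars (-0.44) fell. Among 12 genes of eIF2, its kinases and its exchange factor, Eif2s2, the beta subunit of eIF2 (1.03), and Ppp1r15b, the constitutive partner of the eIF2 phosphatase (0.56), rose at 6 h, and the other 10 did not pass. Of 7 ER stress cell death genes, Bbc3, which encodes the pro-apoptotic protein PUMA, fell at 6 h (-1.49, adjusted p = 0.00143) and none rose.

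The 5 ER lists held 64 tested genes, of which 7 rose and 6 fell at 6 h (10.9% and 9.4%, near the 10.4% and 11.7% of all probe sets). None of 16 genes of translocation and signal peptide removal passed at 1 h or 6 h against 0 h on set A, and Ssr1 fell on set B (-1.10). Of 12 genes of N-glycosylation, Stt3a rose (0.60) and Ganab fell (-0.63) at 6 h, and Mogs fell at 1 h (-0.70). Of 13 other folding genes, Txndc11 (1.11) and Ero1b (0.59) rose and Sil1, the exchange factor of BiP, fell (-1.06). Of 16 other ERAD genes, Selenok (0.97), Ube2g2 (0.67) and Man1b1 (0.64) rose, and Ufd1 (-0.70) and Edem2 (-0.69) fell. Of 7 ER membrane stress factors, Creb3 rose (0.67), and Wfs1 (-0.93) and Mbtps1, the protease that cuts ATF6 (-0.58), fell.

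**Figure D5:**
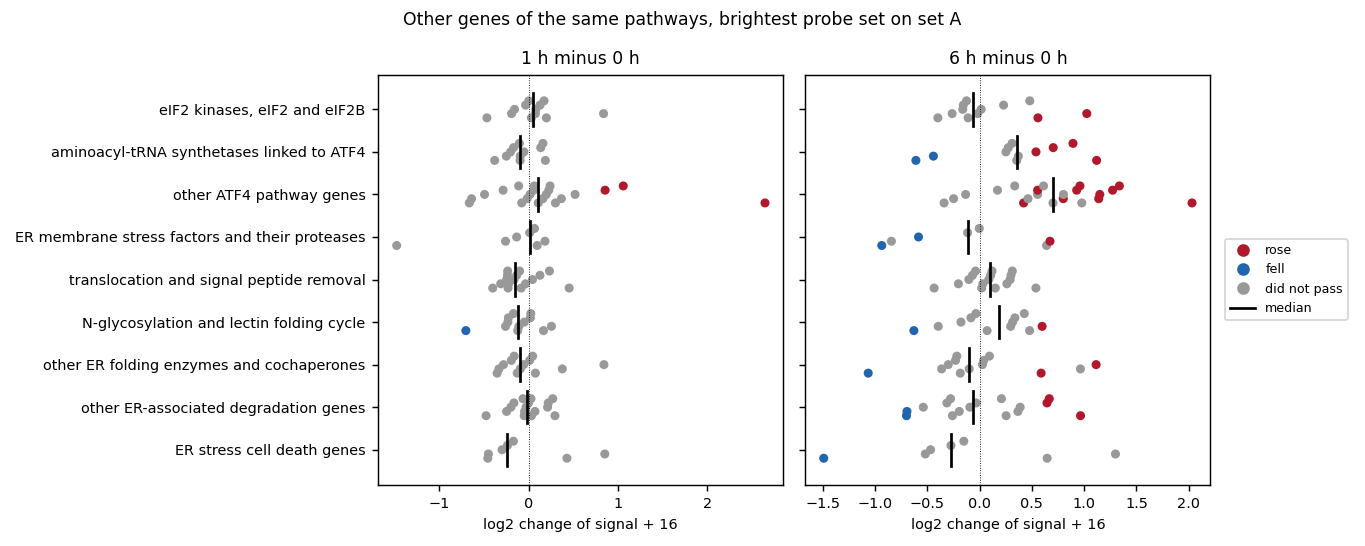
Log2 change at 1 h (left) and 6 h (right) against 0 h of 115 further genes of the same pathways in 9 lists, brightest probe set on set A, with 1 point per gene and a black bar at the list's median; red rose, blue fell and grey did not pass. Atf3, the rightmost point, is at its fitted value although its 0 h level is within background. The list of other ATF4 pathway genes has its median at 0.70 at 6 h, and the medians of the 5 lists of ER membrane factors, translocation, N-glycosylation, folding and degradation genes lie between -0.11 and 0.18.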

How the data were processed

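Signals came from 18 Affymetrix mouse arrays, 9 of set A and 9 of set B, hybridised from 200 ng of total RNA per the labels' protocols. The values are intensities as deposited by the authors, 1 per probe set and array. How they were summarised and scaled is not given in the sources used here, and the 3 set B arrays numbered 1 hold values below 0, which the other arrays do not.

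After raising negative values to 0, log2(value + 16) was computed. Set A kept the deposited scale, because its array medians lay within 0.24 log2 units, and set B (0.56) was quantile-normalized. The 64 control probe sets and the 25% with the lowest mean were left out, leaving 16969 probe sets on set A and 16883 on set B. limma 3.58.1 in R 4.3.3 fitted the 3 times together (eBayes with trend, two-sided, Benjamini-Hochberg within set and contrast), and the fit was tested on simulated data. Promoters and figures used Python 3.11.15, pandas 2.3.3 and matplotlib 3.10.9. A gene is represented by its brightest probe set, leaving out cross-hybridising ones where another exists. Members that passed are given with all values, up to 6 others are named, and from each further list up to 4 that passed per contrast and up to 2 others.

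The members, gene lists, motifs and settings were chosen with earlier results of these data known. On set B, arrays with the same replicate number deviated together (correlations from 0.150 to 0.476), but unlike-numbered arrays among replicates 2 and 3 did so too (0.132 to 0.197), and number 1 coincides with the arrays that hold values below 0. The set B fit reported has no block, and the blocked values are given beside it.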

Additional observations from a re-analysis of the deposited data

Results flagged for a closer look

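For 9 members the change after 6 h differed from the change after 1 h by the limma contrast between the 2 times on set A. The 6 h change was larger than the 1 h change by 1.3 log2 units for Chac1, 1 for Sesn2, 0.95 for Asns, 0.62 for Psat1, 0.58 for Atf5 and 0.46 for Xbp1. The difference was -1.16 for Ppp1r15a, -0.71 for Dnajb9 and -0.58 for Edem1. Those of Atf5, Xbp1 and Edem1 were lost in 5 of 9 fits without 1 array each, and those of the other 6 held in every such fit.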

How the results depend on the processing

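On set A, 8 member probe sets changed at 1 h against 0 h, and this fell to 2 with the Gapdh ratio as a covariate, 2 with the Actb ratio (chosen after seeing the data), 3 without the intensity trend and 3 with only the 2 times compared. It ranged from 3 to 14 without single arrays. At 6 h against 0 h the 22 became 8 with either ratio and ranged from 15 to 23 without single arrays, and between 6 h and 1 h the 13 ranged from 8 to 13. On set B the single 6 h call went to 0 after median scaling, on the deposited scale, without the trend and with the Gapdh ratio, and ranged from 0 to 1 without single arrays. Between 6 h and 1 h the count of 0 became 1 with the replicate block and 1 with the summary method as a block (chosen after seeing the data). The labels do not say whether a replicate number marks a shared experiment. On set A same-numbered arrays deviated together weakly (correlations from 0.018 to 0.174), where unlike-numbered arrays ran from -0.137 to 0.034. The set A fit reported has no block. With replicate as a block, 12 member probe sets changed at 1 h, 23 at 6 h and 13 between the times, and every call of the fit without it was kept. Of all probe sets, 6.02%, 24.3% and 13.7% were then called. Of 881 alternatives over 44 results for single member probe sets, 741 kept direction and call, 138 lost the call and 2 reversed: a dimmer probe set of Canx at 1 h with the Actb ratio (-0.086) and of Hsp90b1 at 6 h with the Gapdh ratio (-0.025), and the cause was not tested. In simulated data for 6 h against 0 h, 49% of log2 changes of 1 and 84% of changes of 2 were recovered among 16969 probe sets of set A. On set B 7% and 36% were recovered among 16883. Only 100 probe sets were shifted per size of change, where 3753 were called on set A and 844 on set B in the data. The adjusted p depends on how many probe sets change, so these rates do not give the share of real changes missed.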
